A study of Mus musculus with 21 samples.

Results

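Atp1a4, Atp1b1, Atp1b2, Atp1b3 and Fxyd1 are 5 of the genes that encode the sodium-potassium ATPase (the sodium pump) and its regulators, and their RNA was examined in the hearts of mice given doxorubicin (DOX) with or without a 4T1 tumor. They were taken by gene symbol from a table of 56691 genes, and all 5 were among the 13990 genes whose mean level over the 21 libraries was at least 0.5 FPKM (the read count per kb of gene, scaled by the library total), the limit for testing. Atp1a4 reached that limit only through the groups given DOX, since its means in Control and Tb, 0.272 and 0.273 FPKM, lay below it. The set was chosen with values measured in these same libraries in view, so the members are described here by their values, no p-value is printed for them, and whether a member passed the test (was called) is part of that description only. Atp1a4 is a catalytic alpha subunit, Atp1b1, Atp1b2 and Atp1b3 are beta subunits, and Fxyd1 is a regulator of the pump rather than a subunit that every pump needs.

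The 21 libraries fell into 4 groups named by their titles. Control (n = 5) came from mice without a tumor given normal saline, DOX (n = 5) from mice without a tumor given DOX, Tb (n = 6) from mice bearing a subcutaneous tumor of 4T1 cells, a murine breast cancer line, and given normal saline, and Tb-DOX (n = 5) from tumor-bearing mice given DOX. DOX was injected intraperitoneally at 5 mg/kg once weekly for 3 weeks. The strain, sex, age and genotype of the mice are not given in the sources used here. The labels call every library 4T-1, whereas the study describes heart tissue. The summed level of 8 cardiomyocyte markers was 12130 to 19610 FPKM in every library, and that of 6 epithelial markers of the 4T1 line was at most 3.06 FPKM. The labels do not say that the libraries came from separate mice, so p-values measure the spread between these libraries only.

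The sodium pump exports sodium and imports potassium at the expense of ATP and so sets the gradients on which excitation and the sodium-calcium exchanger of the cardiomyocyte depend. Its alpha subunit hydrolyses ATP and binds cardiac glycosides, its beta subunit is a glycoprotein that carries the alpha subunit to the membrane, and small FXYD proteins adjust its affinity and rate. Atp1a4 is known from sperm, Atp1b2 from glia and neurons, and Fxyd1 (phospholemman) is the main FXYD protein of heart muscle and a target of protein kinase A.

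The promoters of Atp1a4 and Atp1b1 are shown because these were the members with higher levels in both DOX groups. The RefSeq windows used the build GRCm38.p6 and ran from 250 bases before to 50 bases after the annotated start. The 250 bases before the start are printed 5′ to 3′ on the strand of the gene, at chr1:172258425-172258674 (minus strand) for Atp1a4 and at chr1:164458356-164458605 (minus strand) for Atp1b1, with matches to the searched motifs in capitals.
Atp1a4: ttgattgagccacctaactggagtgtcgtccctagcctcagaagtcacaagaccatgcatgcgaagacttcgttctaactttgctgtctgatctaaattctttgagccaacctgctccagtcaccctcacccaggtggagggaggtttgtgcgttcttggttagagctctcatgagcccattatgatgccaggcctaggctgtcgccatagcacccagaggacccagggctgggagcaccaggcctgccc
Atp1b1: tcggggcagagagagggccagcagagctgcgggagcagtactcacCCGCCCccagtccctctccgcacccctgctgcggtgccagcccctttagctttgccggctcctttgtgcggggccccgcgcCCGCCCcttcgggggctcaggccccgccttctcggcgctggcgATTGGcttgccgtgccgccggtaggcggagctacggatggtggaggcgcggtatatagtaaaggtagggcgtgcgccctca
Both strands were searched for 5 motifs. The TATA box was spelled TATAAA. The GC box was spelled GGGCGG. The letters of the CCAAT box are its name. The E-box, which several helix-loop-helix factors bind, was spelled CACGTG. The half-site of the glucocorticoid receptor was spelled AGAACA. The Atp1a4 window, with a GC content of 55.7%, held none of them. The Atp1b1 window, with a GC content of 71.0%, held 2 GC boxes, 205 and 124 bases before the start, and 2 CCAAT boxes, 81 bases before the start and 1 base after it, the last outside the bases printed. Of 32851 windows of the same length in RefSeq, 35.7% held a GC box, 37.4% a CCAAT box, 13.6% a TATA box, 7.15% an E-box and 19.0% the glucocorticoid receptor half-site, and the median GC content was 52.7%. The windows of Atp1b3 (GC content 76.0% and 74.7% at its 2 annotated starts) held 6 GC boxes in the first and 1 E-box in the second. The last of these GC boxes lay 7 bases after the start. That of Fxyd1 (58.7%) held 1 match to TATAAA, on the opposite strand and 1 base after the start, not before it. The promoter table matched 4 of the 5 members, all but Atp1b2.

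Counted reads per library ranged from 13521200 to 18601445. The neutrophil marker sum (5 genes) was 1.65 to 4.83 FPKM in Control, 8.43 to 83.9 FPKM in DOX, 769 to 7206 FPKM in Tb and 1174 to 5642 FPKM in Tb-DOX. The libraries that stood highest, Tb replicates 5 and 6 and Tb-DOX replicate 4, are given again for some of the values that turned on them. FPKM is scaled by the library total, whereas fold changes used counts scaled by TMM. With library totals in place of TMM, the median log2 fold change of all tested genes moved from 0.00 to −0.14 in DOX against Control, from −0.01 to 0.18 in Tb-DOX against DOX and from 0.00 to 0.14 in the interaction.

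Atp1b1 was the most abundant member and Atp1a4 the least. Per kb of gene, the order of levels was Atp1b1, Fxyd1, Atp1b3, Atp1b2, Atp1a4 in 20 of 21 libraries, and only in Tb-DOX replicate 4 did Atp1b3 stand above Fxyd1. Atp1a4 was thus present at 0.14 to 1.42 FPKM beside Atp1b1 RNA at 77.9 to 172.6 FPKM, and its values rested on 8 to 78 counted reads per library. On the files' coordinates (the submitters' processing notes name GRCm39), Atp1a4 (ENSMUSG00000007107) lies at chromosome 1, 172051080 to 172085981, with 3667 bases of exon, and Atp1b1 (ENSMUSG00000026576) at chromosome 1, 164264678 to 164285924, with 3081 bases. Atp1b2 (ENSMUSG00000041329) lies at chromosome 11, 69490562 to 69496768, Atp1b3 (ENSMUSG00000032412) at chromosome 9, 96214708 to 96246495, and Fxyd1 (ENSMUSG00000036570) at chromosome 7, 30751103 to 30756624. All 5 are on the minus strand.

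**Figure D1:**
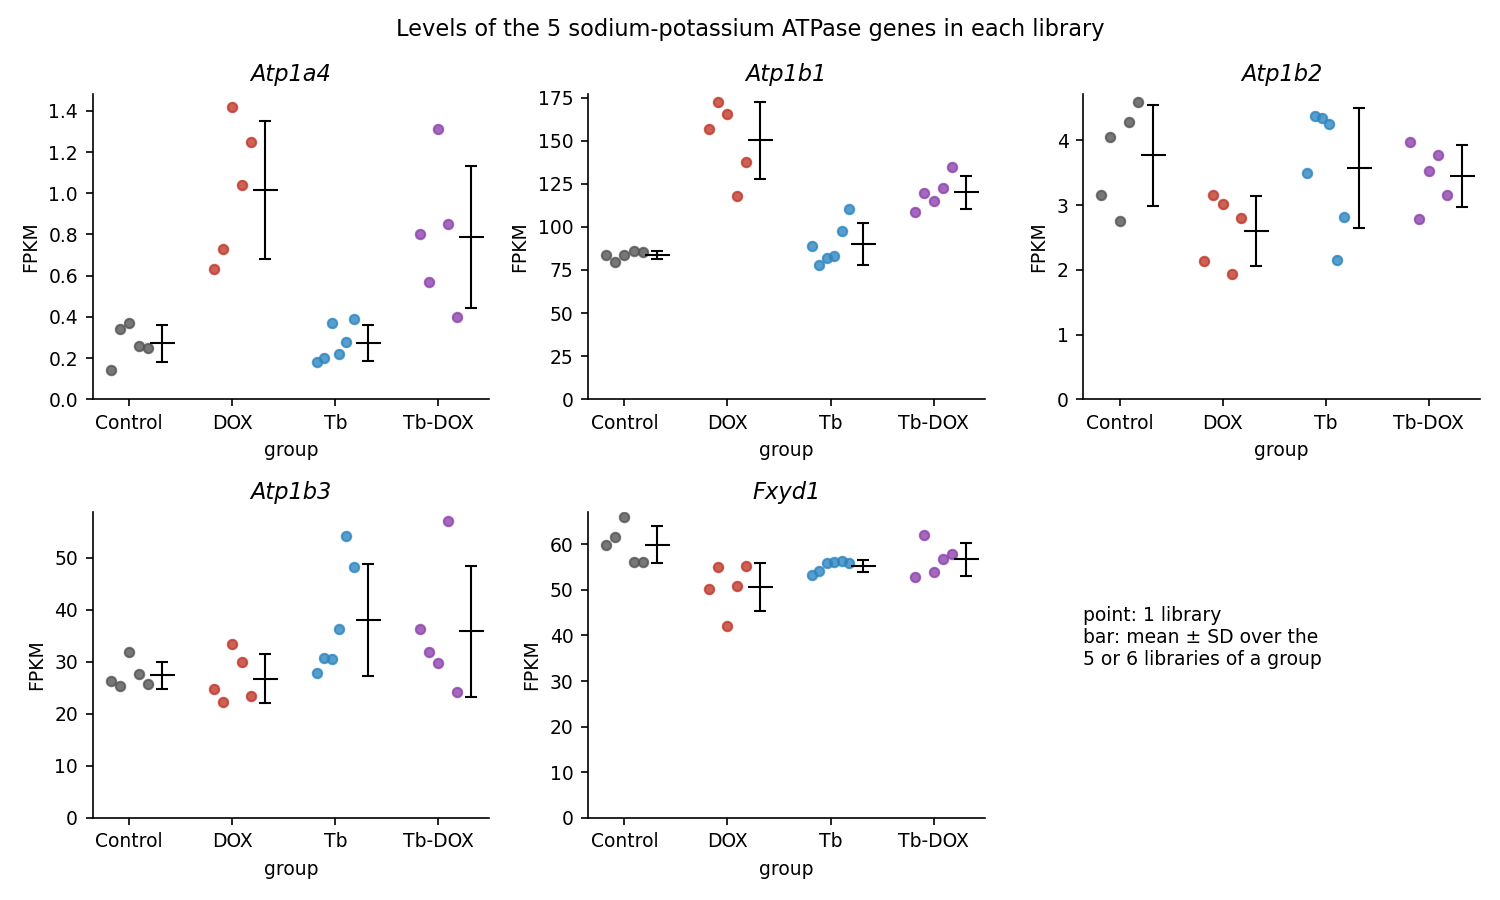
Level of each of the 5 genes (y axis, FPKM, starting at 0) in each library (points) by group (x axis), with the mean ± SD of the group as a bar. Every DOX library lies above every Control library for Atp1a4 (0.63 to 1.42 against 0.14 to 0.37 FPKM) and Atp1b1 (118 to 173 against 79.5 to 86.2 FPKM), while Atp1b3 spreads widely in Tb and Tb-DOX.

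Atp1a4, the alpha subunit on which sperm motility depends, was higher in both groups given DOX than in both groups given saline. In Control it stood at 0.14, 0.34, 0.37, 0.26 and 0.25 FPKM in replicates 1 to 5 (mean 0.272 ± 0.0898, SD, n = 5). In DOX it stood at 0.63, 0.73, 1.42, 1.04 and 1.25 FPKM (mean 1.01 ± 0.335, SD, n = 5). Every DOX library thus exceeded every Control library. In Tb the lowest, median and highest values were 0.18, 0.25 and 0.39 FPKM (mean 0.273 ± 0.0894, SD, n = 6). In Tb-DOX the 5 libraries held 0.80, 0.57, 1.31, 0.85 and 0.40 FPKM (mean 0.786 ± 0.344, SD, n = 5). The lowest Tb-DOX library, replicate 5, lay just above the highest Tb library, so these groups did not overlap either, whereas DOX overlapped Tb-DOX and Control overlapped Tb.

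The log2 fold change of Atp1a4 was 2.03 (SE 0.321) in DOX against Control, a 4.07-fold difference. In Tb-DOX against Tb it was 1.51 (SE 0.301), a 2.84-fold difference. Leaving out any 1 of the 21 libraries gave 1.86 to 2.15 and 1.24 to 1.67. Tb against Control gave −0.03 (SE 0.324), Tb-DOX against DOX gave −0.55 (SE 0.297) and the interaction, the DOX difference with tumor minus that without, gave −0.52 (SE 0.440). These last 3 values lay within about 2 standard errors of 0, and without Tb-DOX replicate 3 the last 2 were −0.83 and −0.80. In bulk heart RNA, fewer cells of a type and less RNA per cell cannot be told apart.

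Since Atp1a4 is known from sperm, germ cell genes are given beside it. The sum of 10 male germ cell markers was 2.34 to 6.92 FPKM in Control, 0 to 0.48 FPKM in DOX, 0 to 0.40 FPKM in Tb and 0.05 to 6.81 FPKM in Tb-DOX. It was thus near 0 both in DOX, where the mean of Atp1a4 was highest, and in Tb, where Atp1a4 was low. In Tb-DOX it was 5.18 to 6.81 FPKM in 4 libraries and 0.05 FPKM in replicate 1, which held 0.80 FPKM of Atp1a4. Of the 10 markers 7, Tnp1, Prm2, Ldhc, Akap4, Odf1, Smcp and Crisp2, were at 0 in all 5 DOX libraries, and 5 were at 0 in all Tb libraries. The part of other cell types in the Atp1a4 values was not tested.

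In DOX against Control the gene next to Atp1a4 moved the other way. Casq1, the calcium-binding calsequestrin of fast muscle, lies 3645 bases downstream of Atp1a4 on the same strand and fell by 1.57 on the log2 scale (SE 0.298) in DOX against Control (edgeR quasi-likelihood test, Benjamini-Hochberg adjusted p = 0.000432). It also fell by 1.15 (SE 0.278) in Tb against Control (adjusted p = 0.0127, and 0.0567 without Control replicate 3, where Casq1 was highest at 60.4 FPKM, with a range of 0.000244 to 0.0842 over 31 alternatives). In Tb-DOX against Tb Casq1 was not called, with −0.47 (SE 0.283, adjusted p = 0.367). Igsf8, 3227 bases upstream on the plus strand, was not called in any comparison, with a log2 fold change of −0.27 (SE 0.189) in DOX against Control (adjusted p = 0.275). Gm17224, 9833 bases downstream and inside Casq1 on the opposite strand, had few reads, with 1.08 (SE 0.640, adjusted p = 0.192). Its DOX libraries (0.61 to 1.14 FPKM, 5 to 8 reads) nevertheless all lay above its Control libraries (0.25 to 0.58 FPKM, 2 to 4 reads). Libraries of these groups did not overlap for 25.2% of all tested genes. Of the neighbours, Casq1 was thus called and lower in DOX, and Igsf8 and Gm17224 were not called, with values on either side of 0. The sum of 8 skeletal muscle markers was 326 to 498 FPKM in DOX and 480 to 736 FPKM in Control, so the groups overlapped. The 736 FPKM was that of Control replicate 3. Of these 8 markers, 4 averaged at least 0.5 FPKM in Control and 5 in DOX. The part of skeletal muscle RNA in the values of Casq1 was not tested.

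**Figure D2:**
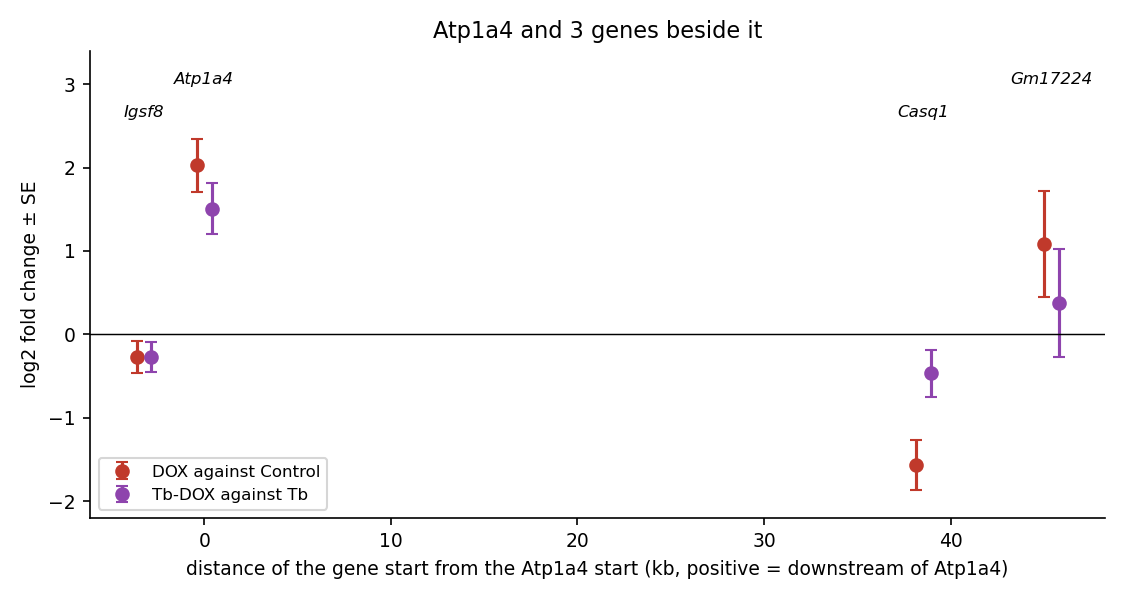
Log2 fold change ± SE (y axis) of Atp1a4 and of 3 genes beside it that passed the limit for testing, against the distance of each gene's start from that of Atp1a4 in kb (x axis, positive downstream), for DOX against Control (red) and Tb-DOX against Tb (purple). Atp1a4 stands at 2.03 and 1.51, and Casq1 at −1.57 and −0.47.

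Gm37950, on the opposite strand, overlaps 1000 bases of Atp1a4 in the table and had a mean of 0.0462 FPKM. Whether the counting used strand is not given in the sources used here, so reads of the antisense gene cannot be told apart from those of Atp1a4.

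Atp1b1, the main beta subunit of the heart, was higher in both DOX groups. Control libraries held 83.7, 79.5, 83.8, 86.2 and 85.2 FPKM (mean 83.7 ± 2.58, SD, n = 5). DOX libraries held 156.9, 172.6, 165.5, 118.0 and 137.5 FPKM (mean 150.1 ± 22.2, SD, n = 5). All 5 stood above every Control library, and their SD was far larger than that of Control. In Tb the lowest, median and highest values were 77.9, 86.0 and 110.2 FPKM (mean 89.9 ± 12.02, SD, n = 6). Tb-DOX libraries held 108.4, 119.7, 114.8, 122.7 and 134.4 FPKM (mean 120.0 ± 9.71, SD, n = 5). Tb replicate 6, with 110.2 FPKM, reached above the lowest Tb-DOX library, so these groups overlapped by 1 library on each side.

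The log2 fold change of Atp1b1 was 0.98 (SE 0.106) in DOX against Control, 1.97-fold, and 0.41 (SE 0.1004) in Tb-DOX against Tb, 1.33-fold. The interaction was −0.57 (SE 0.146), and Tb-DOX stood 0.51 (SE 0.105) below DOX on the log2 scale, at −0.51 (−0.32 with library totals and −0.31 with either limma fit). Tb against Control gave 0.06 (SE 0.101), and 0.007 without Tb replicate 5. Over the alternatives other than leaving out 1 library at a time, that value ran from −0.06 to 0.10. The call of Tb-DOX against Tb was lost when any 1 of 4 libraries was left out, with 0.37 without Tb replicate 2, 0.38 without Tb replicate 3, 0.40 without Tb-DOX replicate 2 and 0.34 without Tb-DOX replicate 5, and also when only the groups compared were fitted (0.41). The interaction was no longer called with library totals (−0.43), with limma on log2(FPKM + 0.1) or log2(FPKM + 1) (−0.41 and −0.40), with a replicate block (−0.53) or without the 3 libraries highest in neutrophil markers (−0.42), the last chosen after seeing the data. The sum of 7 erythroid markers also separated the DOX groups, but downwards, with 252 to 1094 FPKM in Control, 4.77 to 146 FPKM in DOX, 527 to 976 FPKM in Tb and 2.99 to 39.97 FPKM in Tb-DOX. The sum of the 8 cardiomyocyte markers was 13240 to 19610 FPKM, 16460 to 19210 FPKM, 12130 to 14130 FPKM and 15830 to 18530 FPKM in the same order. The part of these cells in the values of Atp1b1 and Atp1a4 was not tested. In the table, the 3′ end of Atp1b1 overlaps 617 bases of Nme7 on the opposite strand, which had a mean of 0.459 FPKM against the 77.9 to 172.6 FPKM of Atp1b1.

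Atp1b2, an adhesion molecule of glia that also serves as a beta subunit, was lowest in DOX. Control libraries held 3.16, 4.05, 2.76, 4.28 and 4.59 FPKM (mean 3.77 ± 0.775, SD, n = 5), and DOX libraries 2.13, 3.15, 3.01, 1.94 and 2.80 FPKM (mean 2.61 ± 0.540, SD, n = 5). The groups overlapped, since Control replicate 3 lay below 3 of the DOX libraries. Tb ranged from 2.15 to 4.38 FPKM with a median of 3.88, and Tb-DOX held 3.98, 2.79, 3.53, 3.77 and 3.16 FPKM. The log2 fold change was −0.41 (SE 0.191) in DOX against Control, and not called. It was called without Control replicate 3 (−0.52), with library totals (−0.53), with limma on log2(FPKM + 0.1) or log2(FPKM + 1) (−0.52 and −0.40), and without the 3 libraries highest in neutrophil markers (−0.41). It was −0.06 (SE 0.181) in Tb-DOX against Tb, −0.13 (SE 0.181) in Tb against Control, 0.22 (SE 0.191) in Tb-DOX against DOX and 0.35 (SE 0.263) in the interaction. Without Tb replicate 5, Tb-DOX against Tb gave −0.15 and Tb against Control −0.03. Over the alternatives other than leaving out 1 library at a time, Tb-DOX against Tb ran from −0.26 to −0.02. Tb against Control ran from −0.12 to 0.07, so its direction turned. The sum of 7 Schwann cell and neuronal markers was also lower in DOX, at 1.71 to 2.61 FPKM against 4.69 to 6.21 FPKM in Control, with 2.47 to 4.94 FPKM in Tb and 2.19 to 3.46 FPKM in Tb-DOX. At least 1 read of each of the 7 was counted in DOX. The part of these cells in the Atp1b2 values was not tested.

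Atp1b3, a beta subunit found in many cell types, blood cells included, was not called in any comparison and varied most among the tumor-bearing hearts. Control libraries held 26.3, 25.3, 31.9, 27.7 and 25.8 FPKM (mean 27.4 ± 2.67, SD, n = 5) and DOX libraries 24.8, 22.4, 33.4, 30.04 and 23.4 FPKM (mean 26.8 ± 4.74, SD, n = 5). These groups overlapped throughout. Tb ranged from 27.8 to 54.3 FPKM with a median of 33.6 (mean 38.0 ± 10.8, SD, n = 6), and Tb-DOX held 36.4, 31.96, 29.9, 57.1 and 24.3 FPKM (mean 35.9 ± 12.6, SD, n = 5). The log2 fold changes were 0.10 (SE 0.186) in DOX against Control, −0.12 (SE 0.178) in Tb-DOX against Tb, 0.44 (SE 0.179) in Tb against Control, 0.22 (SE 0.186) in Tb-DOX against DOX and −0.22 (SE 0.257) in the interaction. Without Tb replicate 5 the value in Tb against Control was 0.27, that in Tb-DOX against Tb turned to 0.06 and that in the interaction was −0.05. Without Tb-DOX replicate 4 the values in Tb-DOX against DOX, Tb-DOX against Tb and the interaction were 0.04, −0.29 and −0.40. Without the 3 libraries highest in neutrophil markers the values were 0.15 in Tb against Control, 0.04 in Tb-DOX against DOX, −0.01 in Tb-DOX against Tb and −0.11 in the interaction. With library totals the value in DOX against Control was −0.03, and that in Tb-DOX against DOX was 0.42. The 3 libraries with the highest Atp1b3, Tb-DOX replicate 4 (57.1 FPKM), Tb replicate 5 (54.3 FPKM) and Tb replicate 6 (48.2 FPKM), were the same 3 that held the highest neutrophil marker sums, 5642, 6451 and 7206 FPKM. All 5 neutrophil markers averaged at least 0.5 FPKM in both tumor groups and in DOX, and 2 of 5 did in Control. The part of neutrophil RNA in the Atp1b3 values was not tested. Of the 50-base stretches of the GENCODE M21 transcripts of Atp1b3, 9.71% also occur in Gm1848, which had no counted read in any library.

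**Figure D3:**
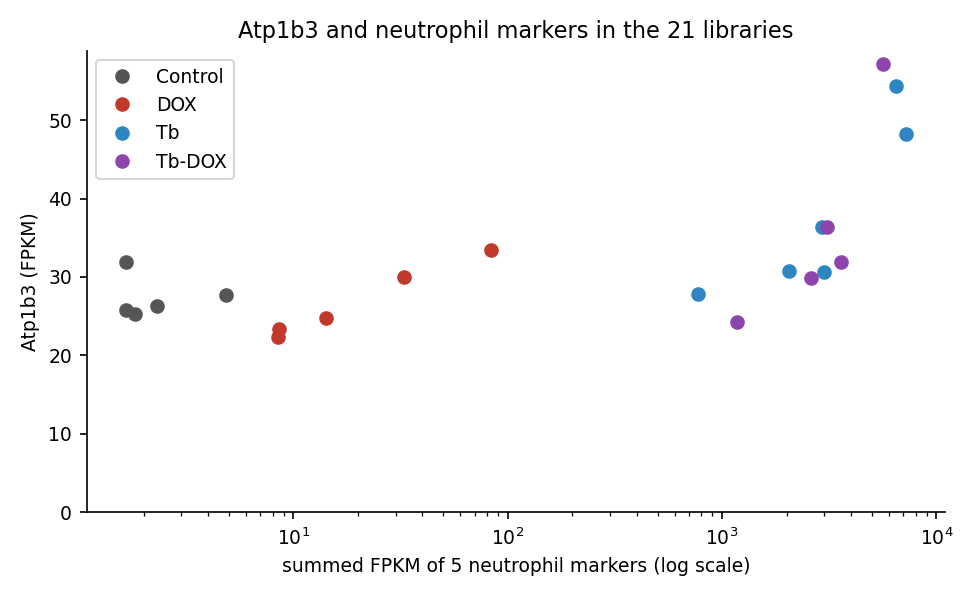
Level of Atp1b3 (y axis, FPKM, starting at 0) against the summed level of 5 neutrophil markers (x axis, FPKM, log scale) in the 21 libraries, coloured by group. The 3 libraries with the highest marker sums (5642 to 7206 FPKM) are also those with the highest Atp1b3 (48.2 to 57.1 FPKM).

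Fxyd1 was not called in any comparison with TMM scaling. Control libraries held 59.9, 61.6, 65.9, 56.1 and 56.0 FPKM (mean 59.9 ± 4.12, SD, n = 5) and DOX libraries 50.1, 54.9, 42.1, 50.8 and 55.2 FPKM (mean 50.6 ± 5.29, SD, n = 5). In FPKM the groups did not overlap, but the gap between 55.2 and 56.0 FPKM was small. Tb ranged from 53.3 to 56.4 FPKM with a median of 55.9 (mean 55.3 ± 1.26, SD, n = 6), and Tb-DOX held 52.8, 61.9, 53.9, 56.8 and 57.9 FPKM (mean 56.7 ± 3.59, SD, n = 5). With TMM scaling the log2 fold change was −0.10 (SE 0.0935) in DOX against Control and not called, and with library totals it was −0.24 and called. Without DOX replicate 3, the library with 42.1 FPKM, it was 0.00 with TMM scaling, and the interaction was 0.03. The other comparisons gave 0.03 (SE 0.0894) in Tb-DOX against Tb, −0.15 (SE 0.0893) in Tb against Control, −0.03 (SE 0.0935) in Tb-DOX against DOX (0.16 with library totals) and 0.12 (SE 0.129) in the interaction. Fxyd7, an FXYD regulator of the brain, lies only 210 bases from Fxyd1 on the same strand and was called in DOX against Control, where Fxyd1 was not.

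Counted over the set, 2 of the 5 members, Atp1a4 and Atp1b1, were called in DOX against Control (edgeR, adjusted p under 0.05), where 36.2% of all tested genes were called. In Tb-DOX against Tb the same 2 were called, where 4.72% of genes were. In Tb against Control 0 of 5 were by edgeR or by DESeq2, where 6.28% of genes were by edgeR. There 1 member had an unadjusted edgeR p under 0.05, as had 2862 of the 13990 genes. In Tb-DOX against DOX 1 member, Atp1b1, was called and lower (17.5% of genes called), and it was also the 1 member called in the interaction (8.94% of genes called). Libraries did not overlap in FPKM for 3 members in DOX against Control (25.2% of genes), for 1 member, Atp1a4, in Tb-DOX against Tb (4.3% of genes), and for 0 members in Tb against Control (5.73%) and in Tb-DOX against DOX (15.8%). The members were selected on these contrasts, so nothing is read from these counts. DOX against Control and Tb against Control share the Control libraries, as Tb-DOX against Tb and Tb-DOX against DOX share the Tb-DOX libraries.

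**Figure D4:**
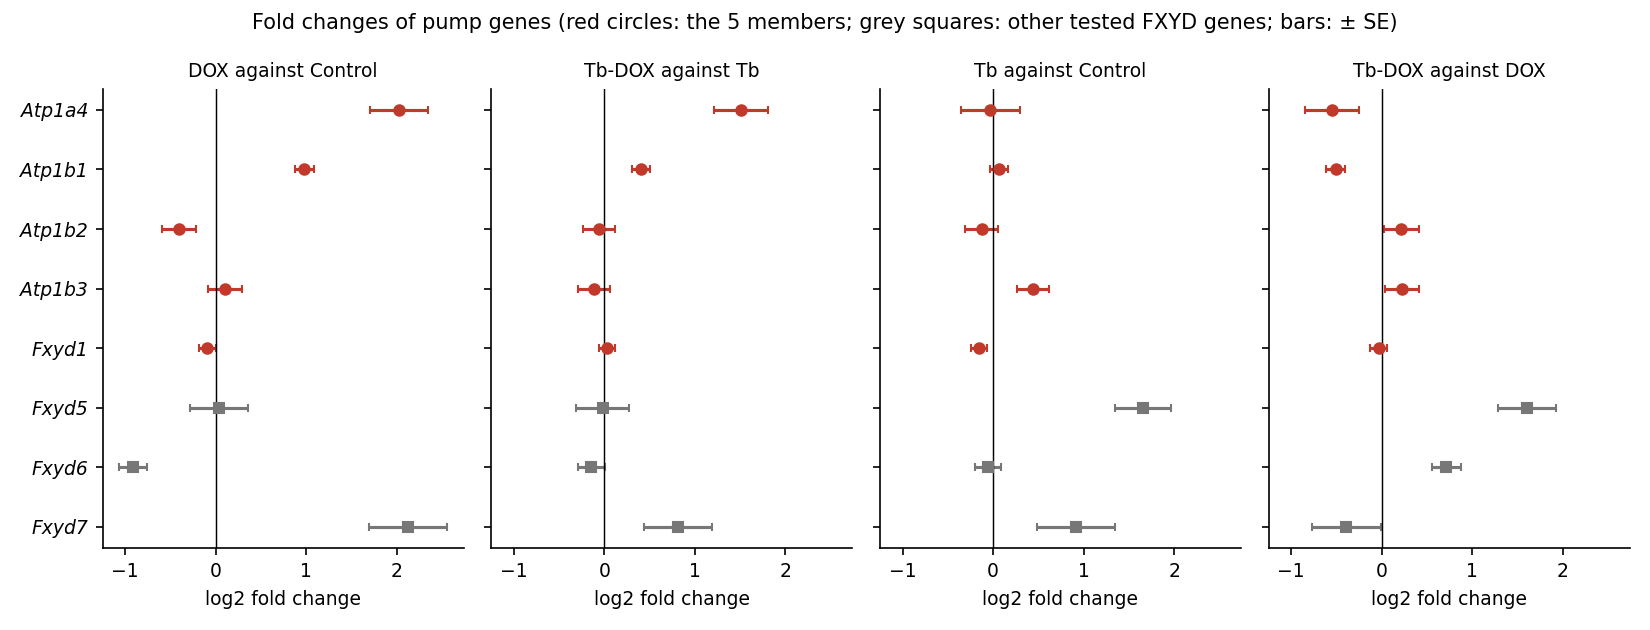
Log2 fold change ± SE (x axis) of the 5 genes (red circles) and of the other FXYD regulators that passed the limit for testing (grey squares), with 1 panel per comparison. Atp1a4 (2.03 and 1.51) and Atp1b1 (0.98 and 0.41) lie to the right of 0 in both DOX comparisons, while Fxyd5 lies to the right in both tumor comparisons (1.66 and 1.61).

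Among the beta subunits, Atp1b1 made up 72.9% ± 1.27 (SD, n = 5) of the summed beta subunit FPKM in Control, 83.4% ± 3.25 (SD, n = 5) in DOX, 68.6% ± 3.51 (SD, n = 6) in Tb and 75.5% ± 6.06 (SD, n = 5) in Tb-DOX. Its lowest share in DOX, 78.7%, lay above its highest in Control, 73.9%, whereas Tb (63.3% to 74.0%) and Tb-DOX (66.8% to 83.1%) overlapped. Atp1b3 made up 23.8%, 15.1%, 28.5% and 22.3% in the same order of groups, and Atp1b2 made up 3.29%, 1.45%, 2.85% and 2.17%. The shares of Atp1b3 in DOX (11.3% to 20.03%) all lay below those in Control (22.3% to 26.9%), whereas Tb (23.1% to 35.3%) and Tb-DOX (14.99% to 31.1%) overlapped, as those of Atp1b1 did. A higher share of Atp1b1 lowers those of the other beta subunits. The level of Atp1b3 itself averaged 27.4 FPKM in Control and 26.8 FPKM in DOX.

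Fxyd1 made up most of the FXYD RNA, with 85.8% ± 0.491 (SD, n = 5) in Control, 85.2% ± 4.04 (SD, n = 5) in DOX, 74.4% ± 7.83 (SD, n = 6) in Tb and 74.0% ± 7.67 (SD, n = 5) in Tb-DOX. Fxyd5 held 6.09% of FXYD RNA in Control, 6.81% in DOX, 17.8% in Tb and 17.7% in Tb-DOX. A higher share of Fxyd5 lowers that of Fxyd1. The level of Fxyd1 itself averaged 59.9, 50.6, 55.3 and 56.7 FPKM in the same order, and that of Fxyd5 4.29, 3.99, 13.9 and 14.1 FPKM. The shares depend on the scaling by gene length. From CPM, which has no such scaling, Fxyd5 held 10.5%, 12.2%, 27.8% and 28.1% in the same order, and Fxyd1 held 77.0%, 79.5%, 61.9% and 62.3%. The lowest shares of Fxyd1, 62.2% in Tb-DOX replicate 4 and 62.3% in Tb replicate 6, again came from libraries with high neutrophil marker sums.

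**Figure D5:**
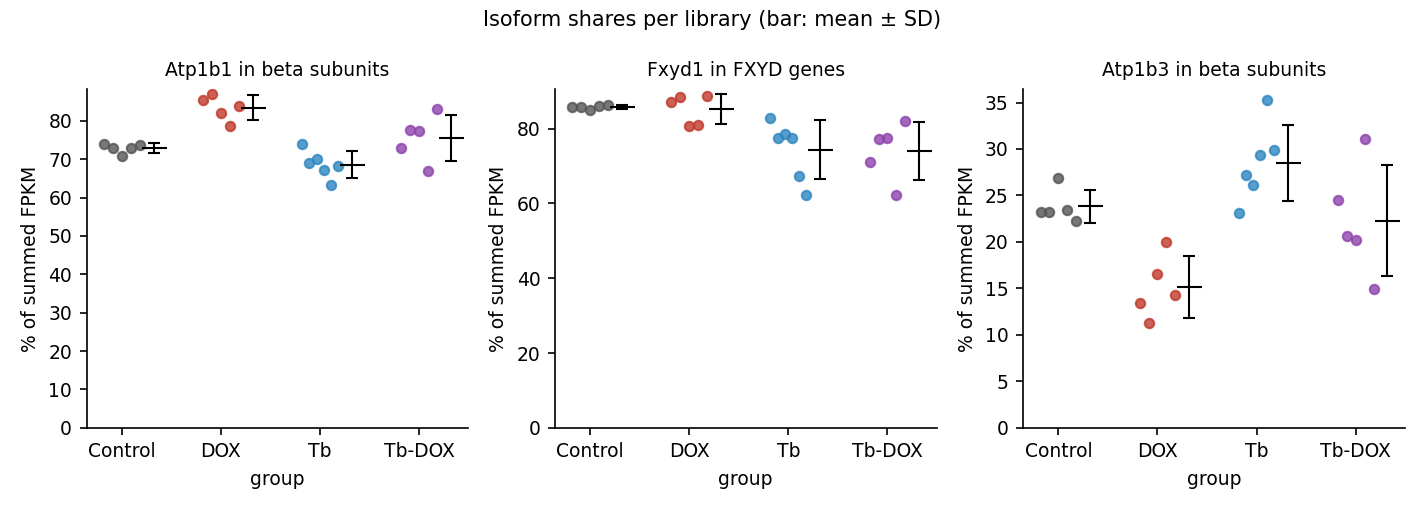
Share of Atp1b1 in the summed beta subunit FPKM, of Fxyd1 in that of the FXYD genes and of Atp1b3 in that of the beta subunits (y axes, percent, starting at 0) per library (points) by group (x axes), with the mean ± SD as a bar. The DOX group has the highest mean share of Atp1b1 (83.4%) and the lowest of Atp1b3 (15.1%), and Fxyd1 shares are lower in both tumor groups (means 74.4% and 74.0%). A lower share is not by itself a lower level, since more RNA of another gene of the family also lowers it.

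Around the members, 32 other genes of the pump and its partners were followed, of which 20 passed the limit for testing, and their adjusted p-values come from the same edgeR test over all genes. In DOX against Control 10 of the 20 were called (36.2% of all genes), 4 higher and 6 lower, with a median log2 fold change of 0.00 beside 0.00 over all genes tested. With library totals the split was 3 higher and 7 lower, beside 1419 higher and 3532 lower over all genes. In Tb-DOX against Tb 2 of 20 were called, both lower (4.72% of all genes). With library totals 1 was higher and 2 lower there, beside 201 and 243 over all genes. In Tb against Control 1 was called and higher (6.28%). In Tb-DOX against DOX 2 were higher and 2 lower (17.5%), and with library totals 3 and 1, beside 2535 and 323 over all genes. In the interaction 1 was called (8.94%). The medians in these 4 comparisons, in this order, were −0.18, 0.04, −0.04 and −0.05, beside −0.02, −0.01, −0.01 and 0.00 over all genes.

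Of the other FXYD regulators, Fxyd7 rose by 2.13 (SE 0.431) in DOX against Control (adjusted p = 0.000751), from 0.42 to 0.69 FPKM in Control to 0.79 to 4.28 FPKM in DOX. These values rested on 4 to 7 counted reads per library in Control and 9 to 42 in DOX. The highest value was that of DOX replicate 4, the library with the highest T cell marker sum (67.1 FPKM). Fxyd7 also lies 31 bases from Fxyd5 on the same strand. Fxyd6 fell by 0.91 (SE 0.156) in DOX against Control (adjusted p = 0.000164), and its interaction was 0.77 (SE 0.212, adjusted p = 0.0310). Without Control replicate 2, Control replicate 4 or DOX replicate 3 that adjusted p was 0.0556, 0.0508 or 0.0583, in a range of 0.0142 to 0.0583 over 29 alternatives. Fxyd5, also known as dysadherin, rose by 1.66 (SE 0.310) in Tb against Control (adjusted p = 0.00121) and by 1.61 (SE 0.319) in Tb-DOX against DOX (adjusted p = 0.00153). It was highest, at 20.7 to 25.5 FPKM, in the same 3 libraries that were highest in neutrophil markers and in Atp1b3. In Tb-DOX against DOX Fxyd6 rose by 0.71 (SE 0.156, adjusted p = 0.00315).

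Of the regulators and transporters that act with the pump, Nkain1, a membrane protein that binds beta subunits, fell by 2.42 (SE 0.490) in DOX against Control (adjusted p = 0.000748), from 2.49 to 3.59 FPKM in Control to 0.14 to 1.05 FPKM in DOX. The glucocorticoid receptor Nr3c1 fell by 0.75 (SE 0.138, adjusted p = 0.000307) and the kinase Wnk1, which controls cation-chloride cotransport, by 0.69 (SE 0.121, adjusted p = 0.000206). Both also fell in Tb-DOX against Tb, Nr3c1 by 0.55 (SE 0.132, adjusted p = 0.0202) and Wnk1 by 0.43 (SE 0.116, adjusted p = 0.0368), and both calls were lost when Tb-DOX replicate 1, 2 or 5 was left out (adjusted p of 0.0509 to 0.0609 for Nr3c1 and 0.0572 to 0.0866 for Wnk1). The Wnk1 call was lost as well without Tb replicate 1, 2 or 3 or Tb-DOX replicate 3 or 4, with adjusted p of 0.0561 to 0.0863. Over 31 alternatives the adjusted p ran from 0.000576 to 0.0732 for Nr3c1 and from 0.00725 to 0.0902 for Wnk1. Slc8a1, the cardiac sodium-calcium exchanger that uses the pump's gradient, rose by 0.66 (SE 0.160) in DOX against Control (adjusted p = 0.00304), and in Tb-DOX against Tb its log2 fold change was 0.50 (SE 0.152, adjusted p = 0.0586, and 0.0108 to 0.177 over 31 alternatives). Cav3, the caveolin of muscle, rose by 0.71 (SE 0.203, adjusted p = 0.00949) in DOX against Control and the potassium-chloride cotransporter Slc12a4 by 0.39 (SE 0.120, adjusted p = 0.0141, and 0.130 with library totals, in a range of 0.00333 to 0.165). The ubiquitin ligase Nedd4l fell by 0.41 (SE 0.122, adjusted p = 0.0126) and the sodium-potassium-chloride cotransporter Slc12a2 by 0.32 (SE 0.106, adjusted p = 0.0230, and 0.0631, 0.0653 and 0.0700 without Control replicate 5, DOX replicate 4 and DOX replicate 5, in a range of 0.00912 to 0.0700). In Tb-DOX against DOX the kinase Sgk1 fell by 1.17 (SE 0.322, adjusted p = 0.0157, range 0.000273 to 0.0549) and Slc12a4 by 0.46 (SE 0.120, adjusted p = 0.0114, and 0.142 with library totals, range 0.00230 to 0.185).

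The genes whose levels ran most like those of each member were ranked by Pearson's r of log2(FPKM + 0.1) over the 21 libraries, which share the groups and the library scaling, so these are descriptions. Atp1a4 ran most like 9330179D12Rik (r = 0.901), Dcxr (0.900), Selenbp1 (0.887), Arfgap2 (0.879) and Hsbp1l1 (0.877), and after each group's mean was subtracted r was 0.670, 0.643, 0.604, 0.796 and 0.605. The groups differ in Atp1a4 and in Atp1b1, so the pooled values of both hold that difference. Ranked by the values within groups, Atp1a4 ran most like Arfgap2 (0.796), Tmem208 (0.774) and Dusp28 (0.757), of which the last had a pooled r of 0.00727. Atp1b1 ran most like Mob1b (0.925), Slc25a12 (0.922) and Thbs2 (0.922), with 0.737, 0.652 and 0.613 within groups, and ranked within groups it ran most like Rbfox2 (0.843), Pafah1b1 (0.821) and Mbnl1 (0.814). Atp1b2 ran most like Rab3il1 (0.870), Zfp971 (0.869) and Nfic (0.853), with 0.877, 0.835 and 0.818 within groups. Atp1b3 ran most like Msn (0.944), Ppp1r18 (0.942) and Diaph1 (0.932), with 0.939, 0.925 and 0.914 within groups. Ranked within groups, Atp1b3 ran most like Clic1 (0.955), Msn (0.939) and Actb (0.933). Fxyd1 ran most like Ppil1 (0.855), Ethe1 (0.83) and Ptgr2 (0.828), with 0.793, 0.670 and 0.668 within groups. Ranked within groups it ran most like D830032E09Rik (0.832), Ppil1 (0.793) and Cabcoco1 (0.784).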

How the data were processed

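Heart RNA of 21 libraries was analysed from 1 deposited table. The submitters' processing notes name cutadapt, FastQC, HISAT2, HTSeq 0.6.1, DESeq2 1.34.0 and the build GRCm39. The authors deposited read counts per gene and FPKM values, which in 100% of values (tolerance 0.005) are the count divided by gene length and library total. The table's annotation columns were used for symbols, coordinates and lengths only. The 5 members, the lists of genes, the tests and the choice of genes to name (every member, every pump list gene called in a comparison, and neighbours of Atp1a4) were all made with earlier results of these data known. Some genes that these lists first held are not reported here. The counts went into edgeR 4.0.16 under R 4.3.3 (TMM, quasi-likelihood F test, 1 coefficient per group, all 21 libraries) for 13990 genes with a mean of at least 0.5 FPKM, with p-values adjusted by Benjamini-Hochberg and called under 0.05. An SE is the log2 fold change over the root of F. The test was tried on simulated data first. Libraries of a group differed beyond counting noise in all 45 replicate pairs (chi-square per degree of freedom of at least 6.07). Alternatives were DESeq2 1.42.0, limma 3.58.1, other scalings, filters and pseudocounts, a replicate block and leaving out libraries. Depth was 13521200 to 18601445 reads per library, and of the members Atp1a4 had the fewest.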

Additional observations from a re-analysis of the deposited data

Results flagged for a closer look

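In 120 groups of values tested for a single library far from the rest (Dixon's criterion), 15 had one, where chance gives about 1 in 20 groups. None was the FPKM of a member. Control replicate 3 stood apart in Casq1 (60.4 FPKM, others 29.1 to 35.6). Tb replicate 5 stood apart in Sgk1 (37.9 FPKM), Slc12a4 (11.2 FPKM) and Slc4a7 (3.72 FPKM), all above the other Tb libraries, and in Nr3c2 (1.48 FPKM) and Prkaca (53.2 FPKM), both below them. Tb replicate 6 was highest of Tb in Fxyd6 (6.46 FPKM) and Slc12a2 (7.67 FPKM). In Tb-DOX, Cav3 stood at 66.2 FPKM in replicate 4, Prkaca at 83.9 FPKM in replicate 2 and Prkce at 3.69 FPKM in replicate 3. In DOX, Fxyd6 stood at 2.39 FPKM in replicate 4, Prkaca at 97.9 FPKM in replicate 5 and Nr3c1 at 9.62 FPKM in replicate 3. Slc12a2 stood at 7.12 FPKM in Control replicate 5.

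The difference with DOX differed between hearts with and without a tumor for Fxyd6, by 0.77 on the log2 scale (SE 0.212, edgeR adjusted p = 0.0310). That call was lost without Control replicate 2, Control replicate 4 or DOX replicate 3 (edgeR adjusted p of 0.0556, 0.0508 and 0.0583). For Atp1b1, a member selected on these values, the same difference was −0.57 (SE 0.146) and is given without a p-value. It was not called with library totals, either limma fit, a replicate block or without the 3 libraries highest in neutrophil markers.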

How the results depend on the processing

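Of the members, Atp1a4 has the fewest reads, 8 to 78 per library, and it was not tested at a mean FPKM of at least 5. It was selected on its values in these libraries, so nothing is read from its calls. With limma on log2(FPKM + 1) its log2 fold changes were 0.65 (DOX against Control) and 0.47 (Tb-DOX against Tb), since a pseudocount near the level of a gene shrinks its change. Among the members, the pump list genes and the neighbours of Atp1a4, no fold change that passed the test turned its direction under any alternative run. Other genes were not compared in this way. Same-numbered libraries of different groups correlated at −0.234 to 0.21 in their deviations from group means, with 3 of 30 pairs over 0.1, so the numbers mark no pairing. A replicate block gave 469 calls in Tb against Control (879 without), 506 in the interaction (1251 without) and 0 members called in the interaction, and moved no other count by over 1.5 times. With CPM in place of FPKM 29 of 44 group shares of beta and FXYD genes moved by more than 1 SD, and those of Atp1b1 were 76.1%, 85.9%, 72.6% and 78.9% in Control, DOX, Tb and Tb-DOX. The cause of the other differences below was not tested.

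Scaling by library totals gave 4 members called in DOX against Control (Atp1b2 and Fxyd1 besides Atp1a4 and Atp1b1) and 0 in the interaction, with Fxyd1 at −0.24 in DOX against Control, 0.16 in Tb-DOX against DOX and 0.28 in the interaction, and Atp1b1 at −0.32 in Tb-DOX against DOX. Over all 13990 genes that scaling called 4951 in DOX against Control, 1419 higher and 3532 lower, and 1185 in the interaction. Limma on log2(FPKM + 0.1) gave 4 and 0 members called in the same 2 comparisons, Fxyd1 at −0.25, 0.17 and 0.28, Atp1b1 at −0.31, and 399 calls and 1 pump list gene in Tb-DOX against Tb. Over all genes it called 4908 in DOX against Control, 1335 higher and 3573 lower, and 966 in the interaction. Limma on log2(FPKM + 1) gave 4 and 0 members called, Fxyd1 at −0.24, 0.16 and 0.28, and Atp1b1 at −0.31 in Tb-DOX against DOX and −0.40 in the interaction. DESeq2 gave 1074 calls in Tb-DOX against Tb (660 with edgeR), 2036 calls in the interaction and 2 pump list genes there. A mean FPKM of at least 5, which tests 5668 genes, gave 2496, 334, 948 and 551 calls in DOX against Control, Tb against Control, Tb-DOX against DOX and the interaction, 1 member called in DOX against Control and 1 in Tb-DOX against Tb, 6 pump list genes called in DOX against Control (10 with the lower limit) and 0 in the interaction. With no filter 2 pump list genes were called in the interaction. Fitting only the groups compared gave 351 calls, 1 member and 1 pump list gene in Tb-DOX against Tb. Without the 3 libraries highest in neutrophil markers, an alternative chosen after seeing the data, there were 1145 calls in Tb-DOX against Tb, 490 in Tb against Control and 0 members called in the interaction. A log2 fold change of at least 1 left 1392, 155, 504, 786 and 544 calls in DOX against Control, Tb-DOX against Tb, Tb against Control, Tb-DOX against DOX and the interaction, 1, 1, 0, 0 and 0 members and 2, 0, 1, 2 and 0 pump list genes.

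Leaving out 1 library at a time gave 260 to 938 calls in Tb-DOX against Tb and 657 to 1721 in the interaction, 0 to 3 and 0 to 2 pump list genes, and 1 to 2 members called in the first and 1 in every case in the second. Calls in Tb-DOX against Tb fell to 260 to 415 without Tb replicate 1, 2 or 3 or Tb-DOX replicate 1, 2, 3 or 5, and those in the interaction to 657 to 822 without Control replicate 2, 4 or 5, DOX replicate 3 or 4 or Tb-DOX replicate 1 or 3. The 0 pump list genes arose in Tb-DOX against Tb without Tb-DOX replicate 1, 2 or 5, and in the interaction without Control replicate 2 or 4 or DOX replicate 3. DOX against Control, Tb against Control and Tb-DOX against DOX had 4320 to 5943, 595 to 1204 and 1755 to 3478 calls.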
